A study of Sus scrofa with 12 samples.

Results

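Histone gene loci were followed in RNA of the left ovary from 12 gilts, female pigs (Sus scrofa) that have not yet farrowed, of New French Yorkshire stock. The loci are those of the deposited expression table whose description names a histone of class H1, H2A, H2B, H3 or H4, leaving out the variants H2A.V, H2A.J and H3.3 and the histone-modifying enzymes, with a mean of at least 0.5 FPKM (fragments per kilobase, scaled to library size) over the 12 libraries. This gave 38 loci of the 29150 in the table, and 20421 loci passed the same minimum. ES ovaries came from 6 gilts with a second estrus recorded directly after the first, killed during the third estrus. NES ovaries came from 6 full-sister littermates of those gilts that had shown no estrus. All came from healthy stock of the same farm, no treatment is named, and ages at slaughter are not given. The labels do not say which ES and NES libraries are from sisters. Each library is whole-ovary RNA, so the cell type behind a value is unknown, and fewer cells of a type and less RNA per cell cannot be told apart.

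Most histone proteins are made from replication-dependent genes, which are small, lack introns and lie in clusters. These genes are transcribed while DNA is copied, so that an octamer of H2A, H2B, H3 and H4 can wrap each new stretch of DNA, with H1 binding the linker between octamers. Their messages end in a stem-loop bound by SLBP in place of a poly(A) tail, and are degraded when DNA synthesis stops. Libraries made by depleting ribosomal RNA keep such messages. In the ovary the granulosa cells of growing follicles are the main dividing population, and they stop dividing after the LH surge.

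The name replication-dependent holds for most of the 38 loci and not for all. H1FX and H1F0 encode the linker histones H1x and H1.0, which are known to be made outside DNA replication, and HIST1H1T and HIST1H2BA are known for their testis forms. The other 34 carry descriptions of replication-dependent histones, with 3 annotated as pseudogenes. Coordinates are of the pig build Sscrofa11.1. By class there were 6 H1, 12 H2A, 7 H2B, 3 H3 and 10 H4 loci. The loci are 311 to 83604 bases long, and 27 are under 700 bases. Of these loci, 5 join more than 1 annotated gene, and 13 overlap another of the 38 on the same strand. Replication-dependent genes of a class are known as near-copies of each other, and how reads were divided between copies is not given, so each single locus is uncertain. The H2A type 2-A-like loci MSTRG.16018 and MSTRG.16021 on chromosome 4, for example, had counts within 2.97% of each other in all 12 libraries.

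Of the loci with a fitting description, 6 fell under the minimum. The lowest locus kept was HIST1H2BA at 0.607 FPKM, and the highest left out was MSTRG.9801, an H2B subacrosomal variant-like locus, at 0.400 FPKM. The other 5 were H2A-Bbd loci of the X chromosome, with 1 to 43 counts summed over the 6 ES libraries and 5 to 32 over the 6 NES libraries. In a fit with no minimum, 4 of the 6 had positive and 2 negative log2 differences, and none was called. Of the 38 kept, 35 had a mean of at least 0.5 FPKM in both groups. The exceptions, MSTRG.20493, HIST1H2BA and MSTRG.20503, passed through the NES libraries.

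Libraries held 58140547 to 68961955 counts. The histone loci took 0.0496 to 0.0678% of the counts in ES libraries and 0.0649 to 0.158% in NES libraries. NES6 stood apart from the other NES libraries: it was the lowest NES library at 31 of the 38 loci, and its histone share of 0.0649% lay inside the ES range. It was singled out by the same values that are tested, so a count without it is no independent support; counts with 1 library left out are given as ranges over all 12 libraries. ES3 had the highest summed level of macrophage markers and ES6 that of epithelium markers, with values given at the end.

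The comparison asks how histone RNA in ovaries at estrus differs from that in ovaries of sisters without recorded estrus. All 38 loci had lower fitted levels in ES ovaries, with a median log2 difference of -1.24, which is 0.424 times the NES level. The 3 loci that passed the minimum through the NES libraries had to be lower in ES, and the other 35 had a median of -1.22, with 16 called. By edgeR's quasi-likelihood test, 16 of the 38 fell in ES (adjusted p under 0.05 over all tested loci) and 0 rose. Among all 20421 tested loci, 0.793% were called lower in ES and 0.945% in either direction, 43.8% had a negative log2 difference, and the median log2 difference was 0.043. The 16 comprise 7 H4, 5 H2A, 2 H2B and 2 H3 loci. All 6 ES libraries lay below all 6 NES libraries at 7 of the 38 loci, against 1.72% of all tested loci. At 28 of the 38, at least 5 NES libraries lay above every ES library, against 5.33% of all tested loci. The cutoff of 5 allows for NES6, so this count, like one without NES6, is no independent support.

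The calls lie close to the threshold (adjusted p = 0.0337 to 0.0493), and single libraries decide them. Without NES6, edgeR called 27 of the 38 (background 1.69%), with a median log2 difference of -1.39. Without ES1 it called 19 (background 1.18%), without ES3 6 (0.309%) and without ES5 5 (0.245%). It called 0 without any one of ES2, ES4, ES6, NES1, NES2, NES3, NES4 or NES5, or without ES3 and ES6 together. In the fits with 0 histone calls it also called 0 of all loci, apart from 1 without NES2 and 1 without ES3 and ES6. The median stayed between -1.41 and -1.13 with each library left out. In these fits 32 to 34 of the 38 had an unadjusted p under 0.05, against 2629 to 3811 of all 20421 tested loci. With the numbers of the library names fitted as a block, edgeR called 0 of the 38 and 0 of all loci, with a median of -1.20. The one change of sign was at HIST1H1T (MSTRG.20467), which stood at 0.023 without ES2, 0.036 without ES3, 0.13 without NES4 and 0.19 without ES3 and ES6.

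**Figure D1:**
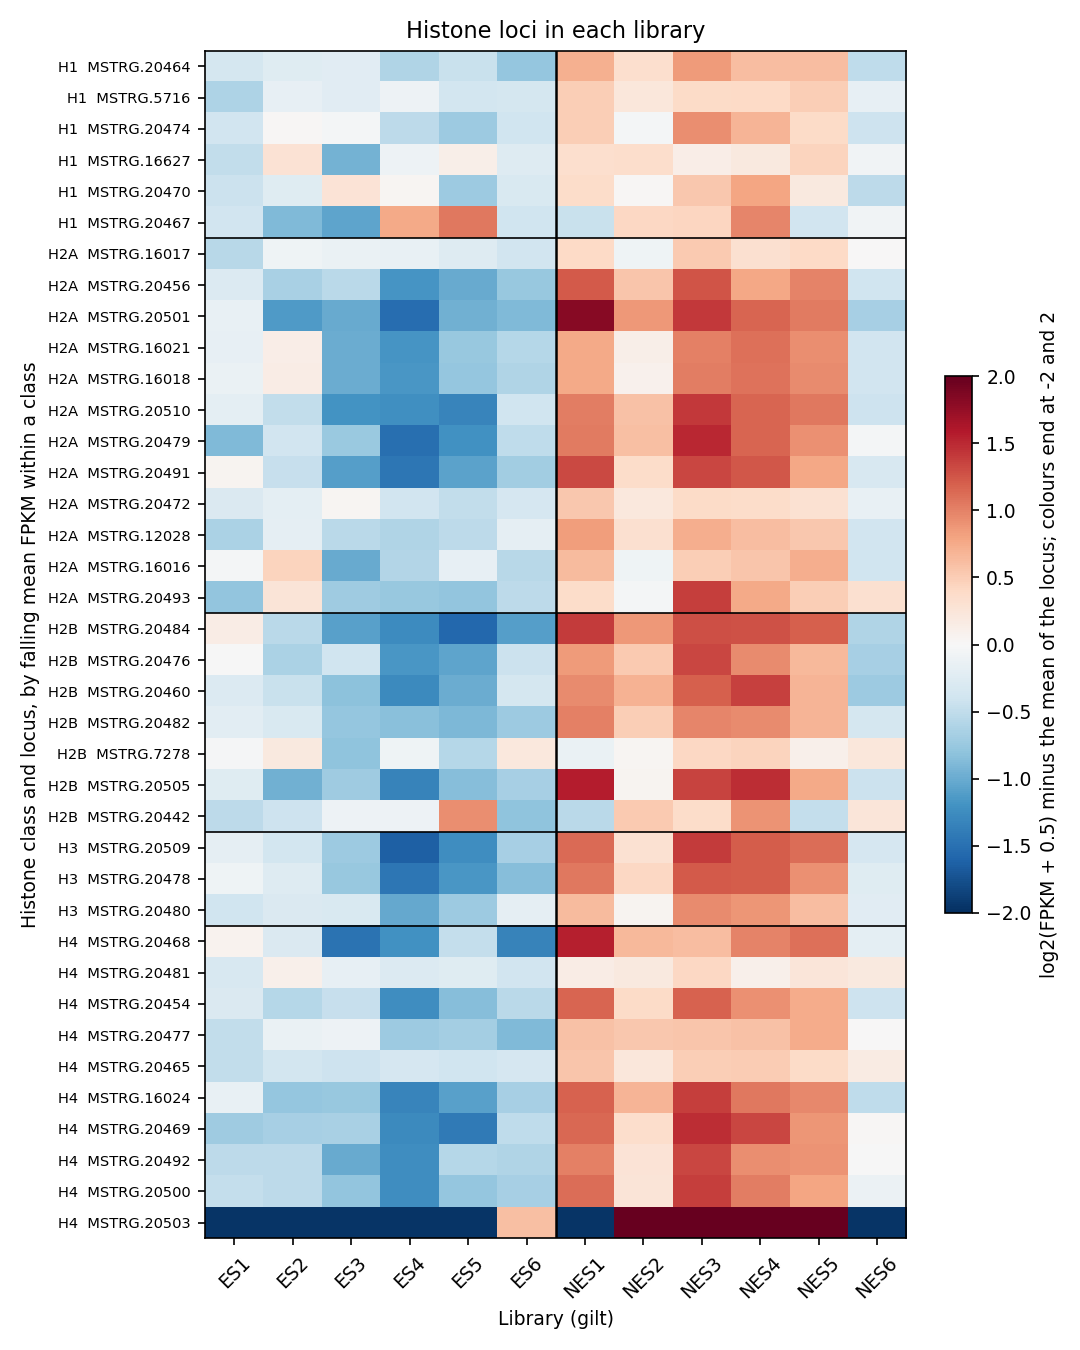
Each row is a histone locus and each column a library, with ES left of NES; colour is log2(FPKM + 0.5) minus the mean of that locus, with colours ending at -2 and 2. NES1 to NES5 are red at most loci, while NES6 and the ES libraries are mostly blue. MSTRG.20503 in the bottom row is listed at 0 in 7 libraries.

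H4, which pairs with H3 at the core of the octamer, was the class with the highest summed level per length. The 10 H4 loci together had 273, 326 and 399 FPKM in ES libraries (lowest, median and highest), against 451, 809 and 939 FPKM in NES libraries. The groups do not overlap, with NES6 the lowest NES library. Of the 10 loci, 7 fell in ES (background 0.793%), and their median log2 difference was -1.48 (0 to 8 called with 1 library left out, highest without ES1 or NES6).

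The H4 locus with the highest mean was MSTRG.20468 (chromosome 7, 20887331 to 20887642), with 37.9, 61.3 and 112 FPKM (lowest, median and highest) in ES ovaries, against 92.8, 191 and 316 FPKM in NES ovaries. In that locus 5 ES libraries lay below every NES library, and ES1 lay above NES6. It differed by -1.45 ± 0.34 (log2 difference, SE; adjusted p = 0.0626) and did not pass the test, while without NES6 it did (-1.59, adjusted p = 0.0233). MSTRG.20454 (chromosome 7, 20721470 to 20721781) had 42.4, 68.5 and 82.3 FPKM in ES ovaries, against 75.8, 180.5 and 229 FPKM in NES ovaries. Here ES1 alone reached above NES6, and the locus fell, at -1.29 ± 0.26 (log2, SE; adjusted p = 0.0413).

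Other H4 loci had groups that do not overlap. MSTRG.20465 (chromosome 7, 20773608 to 20773919) had 27.7, 29.9 and 30.8 FPKM in ES ovaries, against 43.9, 53.0 and 57.7 FPKM in NES ovaries. The ES libraries differ little among themselves there, and the locus fell with a log2 difference of -0.71 ± 0.10 (adjusted p = 0.0337). MSTRG.20469 (chromosome 7, 20891746 to 20892057) had 5.35, 9.17 and 10.4 FPKM in ES ovaries, against 15.3, 31.0 and 42.8 FPKM in NES ovaries, and it fell, with a difference of -1.75 ± 0.28 in log2 (adjusted p = 0.0337). MSTRG.20500, a joined locus of 41800 bases that spans MSTRG.20501, MSTRG.20503 and MSTRG.20505, fell, with a difference of -1.55 ± 0.25 in log2 (adjusted p = 0.0345). It also overlaps the H3.1 locus MSTRG.20509 on the same strand and shares an annotated gene with it, so their calls are not separate.

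H4 loci with similar means differed in how far apart the groups lay. MSTRG.20481 (chromosome 7, 20911248 to 20911559) had 98.4, 108 and 138 FPKM in ES ovaries, against 139, 147 and 171 FPKM in NES ovaries. All ES libraries lay below all NES libraries, but by little, and the locus differed by -0.33 ± 0.10 in log2 (adjusted p = 0.135), outside the threshold. MSTRG.20468 had a similar mean FPKM, 132 against 131. The FPKM ratio of MSTRG.20468 to MSTRG.20481 was 0.329, 0.532 and 1.08 in ES libraries and 0.629, 1.32 and 2.22 in NES libraries. These ratios overlap between the groups, and the pair was chosen after its values were seen, so no test is given.

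The H4 pseudogene locus MSTRG.20503 (chromosome 7, 21595878 to 21596188), named after its values were seen, is listed at 0 in ES1 to ES5 and in NES1 and NES6. It had 2.46 FPKM in ES6 and 11.3, 27.3, 23.1 and 16.6 FPKM in NES2 to NES5, which are 62 counts and 275 to 622 counts. NES1, the library with the highest H4 sum, had none, and whether its reads were given to other copies was not tested. The fitted difference depends on how zeros are treated, and the locus was not called (adjusted p = 0.178). Without it the median of the other 37 loci was -1.22.

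**Figure D2:**
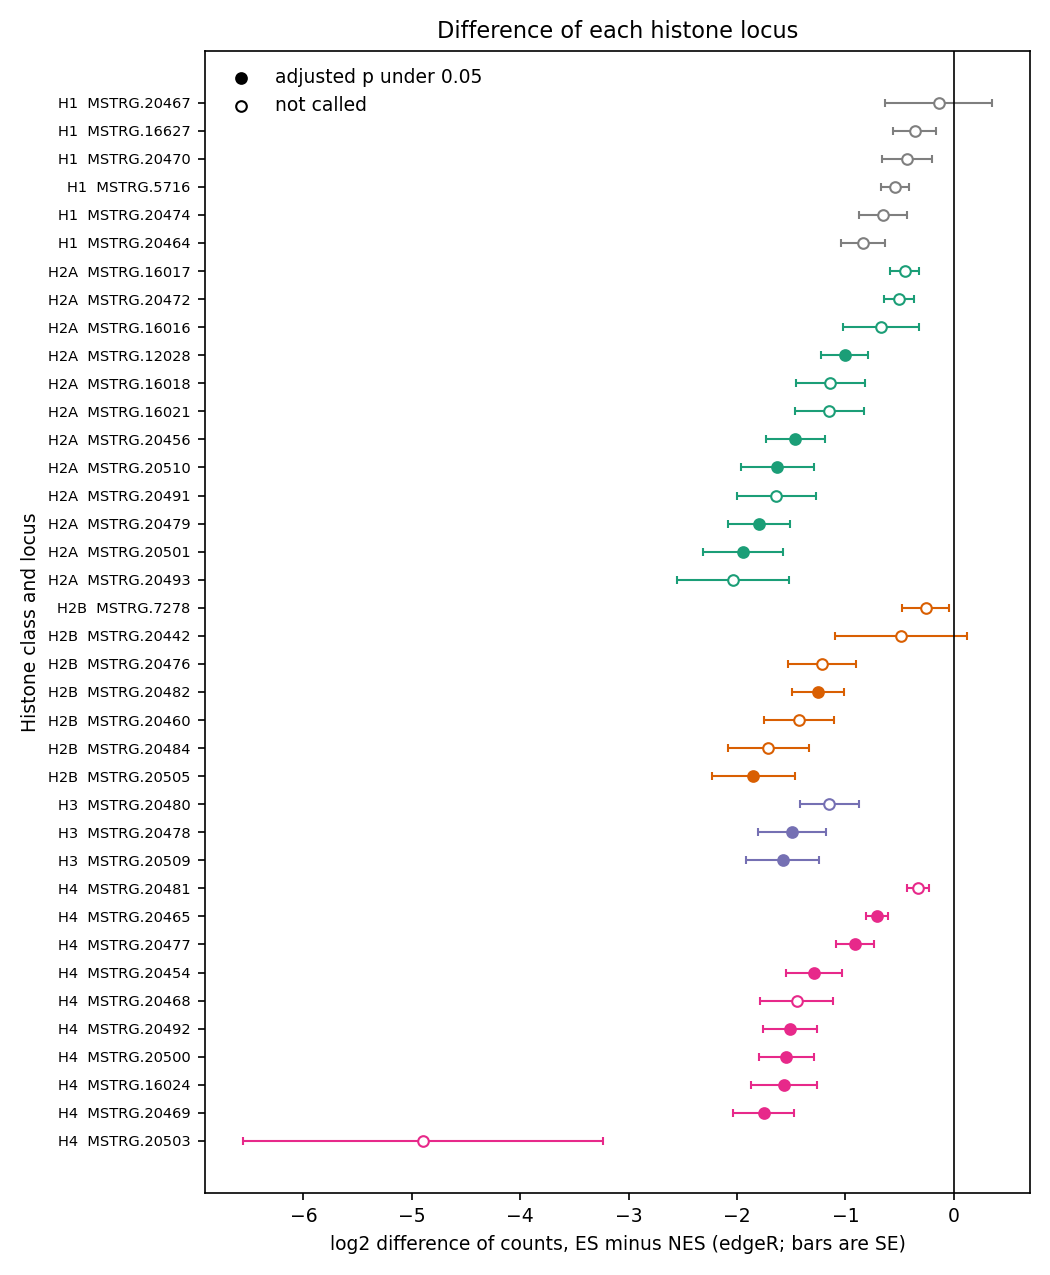
Points give the edgeR log2 difference of counts, ES minus NES, for the 38 loci grouped by histone class, with bars of SE; filled points have an adjusted p under 0.05. All 38 points lie left of 0, the 16 filled ones between -1.94 and -0.71, and no H1 point is filled.

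H3 carries many of the histone modifications read by regulators of transcription. The 3 H3 loci summed to 11.0, 20.6 and 30.4 FPKM in ES libraries and 27.6, 72.2 and 87.5 FPKM in NES libraries. ES1 lay above NES6 in this sum, and the other 5 ES libraries lay below every NES library. Of the 3 loci, 2 fell (background 0.793%), with a median log2 difference of -1.49. HIST1H3E (MSTRG.20478, chromosome 7, 20853958 to 20855220) had 3.90, 6.34 and 10.8 FPKM in ES ovaries, against 9.61, 23.3 and 27.5 FPKM in NES ovaries. ES1 lay above NES6 and the other 5 ES libraries below every NES library, and the locus fell with a log2 difference of -1.49 ± 0.32 (adjusted p = 0.0487). HIST1H3E lies within the joined H1 locus MSTRG.20470 on the same strand. MSTRG.20509 (chromosome 7, 21624844 to 21632426), an H3.1 locus that joins a pair of annotated genes, fell, with a difference of -1.58 ± 0.34 in log2 (adjusted p = 0.0487) and averaged 12.3 ± 4.43 FPKM in ES ovaries, against 39.4 ± 15.2 FPKM in NES ovaries (SD, n = 6 each). One of these genes is also joined in the overlapping H4 locus MSTRG.20500. MSTRG.20480 (chromosome 7, 20872628 to 20875374), the other H3.1 locus, had lower levels per length, 1.43 ± 0.396 FPKM in ES ovaries, against 3.38 ± 1.14 FPKM in NES ovaries, and differed by -1.15 ± 0.27 in log2 (adjusted p = 0.0663). With 1 library left out, 0 to 3 were called, all 3 of them without NES6.

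H2A forms the outer pair of the octamer with H2B. The 12 H2A loci summed to 80.2, 94.0 and 116 FPKM in ES libraries and 117, 246 and 289 FPKM in NES libraries, and the groups do not overlap, with ES2 and NES6 next to each other at 116 and 117 FPKM. Of the 12, 5 fell (background 0.793%), and 0 to 9 were called with 1 library left out, the highest without NES6. DESeq2 called 11 (background 2.97%) and limma on log2(FPKM + 0.5) 7 (1.54%). The median log2 difference was -1.30.

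MSTRG.20479, an H2A type 1 locus (chromosome 7, 20857327 to 20857719), had 2.17, 3.82 and 5.31 FPKM in ES ovaries, against 6.90, 14.4 and 21.1 FPKM in NES ovaries. No ES library reached the NES range, and the locus fell with a log2 difference of -1.80 ± 0.29 (adjusted p = 0.0337). MSTRG.20479 lies within the joined H1 locus MSTRG.20470 on the same strand. MSTRG.20456, also H2A type 1 (chromosome 7, 20729997 to 20730389), had 9.64, 13.6 and 18.5 FPKM in ES ovaries, against 16.9, 41.9 and 54.2 FPKM in NES ovaries. ES1 lay above NES6 and the other 5 ES libraries below all NES libraries (log2 -1.46 ± 0.27, adjusted p = 0.0387). MSTRG.20501, H2A type 1-like (chromosome 7, 21592997 to 21593389), lies within the joined locus MSTRG.20500 on the same strand. It had 5.04, 7.57 and 13.9 FPKM in ES ovaries, against 9.57, 33.6 and 56.0 FPKM in NES ovaries, and the ES maximum is again ES1 (log2 -1.94 ± 0.37, adjusted p = 0.0390).

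HIST2H2AC (chromosome 4, 99168806 to 99169195) was the H2A locus with the highest mean, with 30.8, 39.5 and 43.0 FPKM in ES ovaries, against 42.7, 58.9 and 65.7 FPKM in NES ovaries. ES2 lay just above NES2, and the other 5 ES libraries lay below every NES library. The difference was small for the class, at -0.45 ± 0.13 in log2 (adjusted p = 0.123), and was not called with or without NES6. HIST3H2A, the H2A gene of chromosome 2, fell, with a difference of -1.01 ± 0.22 in log2 (adjusted p = 0.0493) and averaged 1.88 ± 0.354 FPKM in ES ovaries, against 4.01 ± 1.16 FPKM in NES ovaries; it is outside the naming rule and was chosen after its value was seen. Of the other 7 H2A loci 1 fell. Their log2 differences ran from -1.64 to -0.51, apart from MSTRG.20493 at -2.04, which passed the minimum through the NES libraries.

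The 7 H2B loci summed to 45.9, 61.3 and 108 FPKM in ES libraries and 74.4, 225 and 251 FPKM in NES libraries. ES1 and ES2 lay above NES6 and below the other NES libraries. Of the 7, 2 fell (background 0.793%), and 0 to 5 were called with 1 library left out, the highest without NES6. DESeq2 called 5 (background 2.97%) and limma on log2(FPKM + 0.5) 4 (1.54%). The median log2 difference was -1.26. The highest mean was that of MSTRG.20484, an H2B type 1 locus (chromosome 7, 20897823 to 20898203), with 18.5, 25.9 and 61.8 FPKM in ES ovaries, against 36.5, 132 and 148 FPKM in NES ovaries. ES1 and ES2 lay above NES6, and it differed by -1.71 ± 0.37 in log2 (adjusted p = 0.0514), just outside the threshold. MSTRG.20482, a joined locus that encloses it, fell, with a difference of -1.26 ± 0.24 in log2 (adjusted p = 0.0390), as did MSTRG.20505, H2B type 1-K (chromosome 7, 21616417 to 21620648), with -1.85 ± 0.38 in log2 (adjusted p = 0.0454). MSTRG.20505 averaged 2.06 ± 0.645 FPKM in ES ovaries, against 7.98 ± 4.09 FPKM in NES ovaries.

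HIST1H2BB (MSTRG.20460) had 5.16, 8.42 and 10.8 FPKM in ES ovaries, against 7.78, 23.8 and 34.7 FPKM in NES ovaries, and the pseudogene locus MSTRG.20476 had 6.79, 10.8 and 15.8 FPKM in ES ovaries, against 9.84, 27.0 and 40.9 FPKM in NES ovaries. In both, NES6 lay among the ES libraries. They differed by -1.43 ± 0.32 in log2 (adjusted p = 0.0564) and -1.22 ± 0.32 in log2 (adjusted p = 0.0862), and both were called without NES6. The H2B type 2-F-like locus of chromosome 14 (MSTRG.7278) and HIST1H2BA had log2 differences of -0.26 and -0.49 with groups that overlap widely, and adjusted p of 0.588 and 0.735.

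H1 proteins bind the linker DNA between nucleosomes. The 6 H1 loci summed to 114, 130.1 and 154 FPKM in ES libraries and 130.4, 258 and 294 FPKM in NES libraries, with NES6 inside the ES range. None of the 6 passed the test (background 0.793%), and the median log2 difference was -0.49. An unadjusted p under 0.05 was found at 3 of the 6, all lower in ES (background 6.79% lower). DESeq2 called 2 of the 6 (background 2.97%), and limma on log2(FPKM + 0.5) called 1 (background 1.54%). With 1 library left out edgeR called 0 in 11 of 12 fits and 2 without NES6, MSTRG.20464 and H1FX. MSTRG.20464, an H1.2-like locus annotated as a pseudogene (chromosome 7, 20743716 to 20744356), had 61.6, 80.2 and 90.3 FPKM in ES ovaries, against 74.5, 162 and 191 FPKM in NES ovaries. NES6 lay inside the ES range, and the log2 difference was -0.84 ± 0.20 (adjusted p = 0.0673). H1FX (chromosome 13, 71760848 to 71761492), the replacement linker histone H1x, had 17.2, 21.6 and 24.7 FPKM in ES ovaries, against 23.6, 35.1 and 37.7 FPKM in NES ovaries. Again NES6 alone lay inside the ES range (log2 -0.54 ± 0.13, adjusted p = 0.0695). HIST1H1D lies in a joined locus of 83604 bases (MSTRG.20470), which differed by -0.43 ± 0.23 in log2 (adjusted p = 0.379). That locus spans other histone loci on its strand, among them HIST1H3E and MSTRG.20479, which were called. The joined HIST1H1E and HIST1H2BD locus (MSTRG.20474) differed by -0.65 ± 0.22 in log2 (adjusted p = 0.180). The other replacement and testis genes, H1F0 and HIST1H1T, had -0.36 and -0.14 (adjusted p = 0.387 and 0.921).

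**Figure D3:**
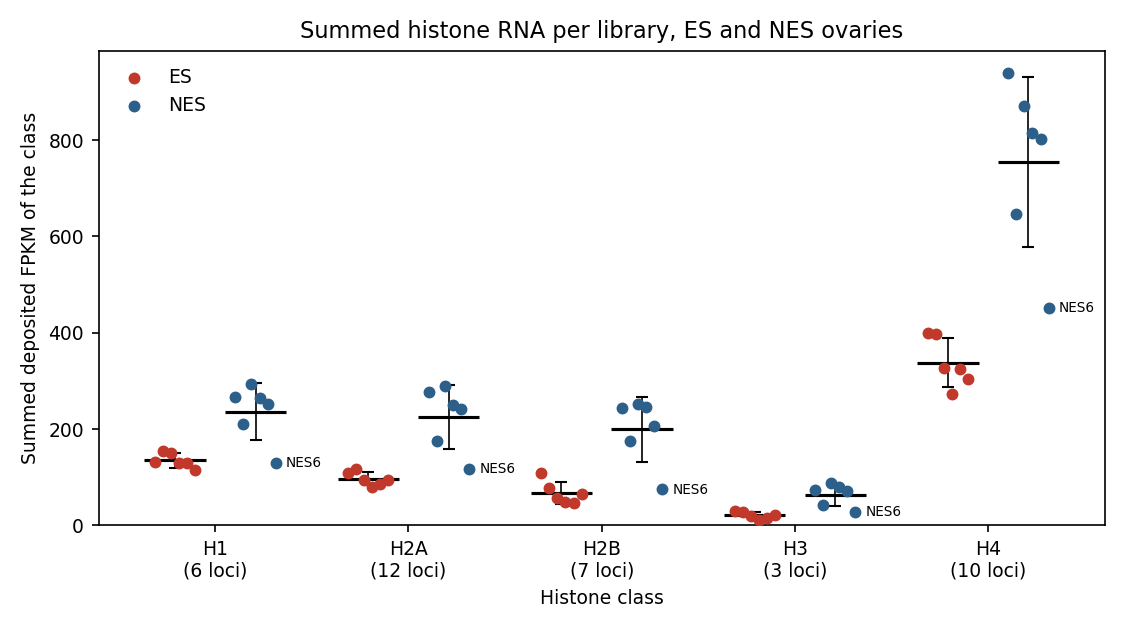
Points are the summed deposited FPKM of each histone class in each library, ES left of NES, with black lines for the mean and bars for the SD (n = 6 each). The H2A and H4 sums do not overlap between the groups, and NES6 is the lowest NES point in every class.

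The make-up of the summed histone FPKM is given by class. H1 held 16.8, 20.8 and 23.8% of the sum in ES libraries (lowest, median and highest), against 14.8, 16.2 and 16.8% in NES libraries, and the groups do not overlap, with ES1 and NES2 next to each other. The H1 part counts H1FX, H1F0 and HIST1H1T, and its largest locus is the pseudogene MSTRG.20464 (mean 114 FPKM). Without H1FX, H1F0 and HIST1H1T the H1 sum was 85.5, 101 and 123 FPKM in ES libraries. In NES libraries it was 97.3, 208 and 248 FPKM. Shares without them are not given, so the gap cannot be taken to hold for the replication-dependent H1 loci. H2B held 7.64, 9.55 and 13.9% in ES libraries and 9.30, 13.8 and 14.8% in NES libraries, and these overlap, with ES1 at 13.9% and NES6 at 9.30%. H4 held 50.3, 51.0 and 54.1% in ES libraries and 48.5, 51.4 and 56.4% in NES libraries, and H2A and H3 also overlapped. These shares are descriptions over loci whose reads can be shared, and no test was made of them.

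By position, 29 of the loci lie in 1 cluster on chromosome 7, 5 on chromosome 4 and 4 alone on chromosomes 2, 5, 13 and 14. The chromosome 7 cluster carries the HIST1 gene names of the major histone cluster of mammals. Of its 29 loci 14 fell (0 to 22 with 1 library left out, the highest without NES6), with a median log2 difference of -1.45. On chromosome 4, 1 of 5 fell, the H4 locus MSTRG.16024 (log2 -1.57 ± 0.30, adjusted p = 0.0390, chosen after its value was seen), with a median of -1.14. Of the single loci HIST3H2A fell, and the median was -0.45. The difference between clusters was not tested, and 0.793% is the share of all tested loci called lower.

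Gaps of more than 200 kb, a distance chosen after the positions were seen, divide the chromosome 7 cluster into HIST1H2BA alone and 3 blocks. The first block (20721470 to 20911559) holds 19 loci, among them 4 of the H1 loci, and 8 of them fell with a median of -1.22 (0.793% of all tested loci were called lower). The block at 21220799 to 21226971 holds 3 loci, 1 of which fell, with a median of -1.64. The block at 21585246 to 21633898 holds 6 loci, 5 of which fell, with a median of -1.74. The last 2 blocks hold no H1 locus, and without H1 the 15 loci of the first block had a median of -1.29. The difference between blocks was not tested, and the last block is the one with MSTRG.20503 and with the nested loci of MSTRG.20500. Within the first block log2 differences ran from -1.80 to -0.14.

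**Figure D4:**
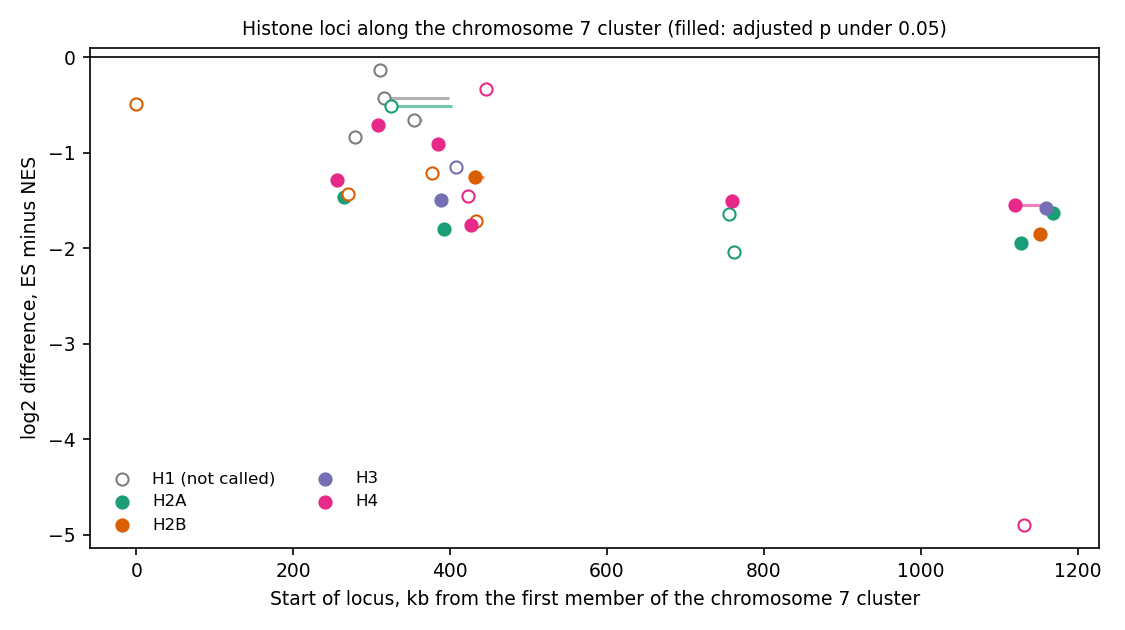
Each point is a histone locus of the chromosome 7 cluster, placed by the distance of its start from the first member in kb, with its log2 difference (ES minus NES) on the vertical axis; lines show the length of long loci and filled points have an adjusted p under 0.05. Every point lies below 0, and the 6 loci at the right end lie at -1.55 or lower, MSTRG.20503 lowest at -4.90.

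The level of a locus showed little relation to its difference: over the 38 loci, which share libraries and reads, Spearman's rho of mean FPKM and log2 difference was -0.0049. The 17 loci that overlap no other locus had a median of -1.01 with 6 called, and the 32 loci of at most 5 kb a median of -1.25 with 13 called. The 34 loci left without H1FX, H1F0, HIST1H1T and HIST1H2BA had a median of -1.36 with 16 called. Of all tested loci 0.793% were called lower, and their median log2 difference was 0.043.

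Genes that transcribe and process histone messages were taken from a list of 31, of which 21 had a locus of their own that passed the minimum. Of these 21, 1 fell and 0 rose (background 0.793%), with 14 negative log2 differences and a median of -0.066. The one that fell was CCNE2, the cyclin E2 that with CDK2 starts S phase and histone transcription, with 0.461, 0.674 and 1.29 FPKM in ES ovaries, against 1.11, 2.35 and 4.70 FPKM in NES ovaries (log2 -1.65 ± 0.32, adjusted p = 0.0390); ES5 alone lay above NES6. NPAT, the coactivator of histone genes that cyclin E and CDK2 act on, averaged 2.27 ± 0.0881 FPKM in ES ovaries, against 2.54 ± 0.516 FPKM in NES ovaries and differed by -0.066 ± 0.13 in log2 (adjusted p = 0.841). CASP8AP2, a partner of NPAT in the histone locus body, had 1.34, 1.5 and 1.67 FPKM in ES ovaries, against 1.79, 2.07 and 2.4 FPKM in NES ovaries. Its groups do not overlap, but the difference of -0.36 ± 0.10 in log2 (adjusted p = 0.121) was not called. ZNF473, a zinc finger protein of histone message processing, differed by 0.64 ± 0.20 in log2 (adjusted p = 0.155). SLBP, the stem-loop binding protein, lies in a locus joined with TMEM129 (MSTRG.21909), which averaged 4.17 ± 0.316 FPKM in ES ovaries, against 5.17 ± 0.667 FPKM in NES ovaries and cannot be given to SLBP alone (log2 -0.21 ± 0.11, adjusted p = 0.341). All ES libraries lay below all NES libraries there, but by little (highest ES 4.62 and lowest NES 4.67 FPKM), and the locus was not called.

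Histone chaperones carry new histones to DNA. Of 29 listed, 25 were measured, and 2 fell and 0 rose (background 0.793% lower), with a median of -0.32 and 19 negative differences (background 43.8%). ASF1B, the chaperone of new H3 and H4 in dividing cells, had 0.213, 0.401 and 0.602 FPKM in ES ovaries, against 0.532, 1.54 and 2.62 FPKM in NES ovaries (log2 -1.86 ± 0.37, adjusted p = 0.0406), and ES1 alone lay above NES6. HJURP, the chaperone of the centromeric histone CENPA, fell, with a difference of -1.97 ± 0.36 in log2 (adjusted p = 0.0387). MCM2, a helicase subunit that also binds H3 and H4, and CHAF1A, of the assembly factor CAF-1, differed by -1.60 ± 0.36 in log2 (adjusted p = 0.0564) and -1.18 ± 0.28 in log2 (adjusted p = 0.0648). NASP, which stores H3 and H4, averaged 1.92 ± 0.460 FPKM in ES ovaries, against 3.16 ± 0.431 FPKM in NES ovaries (log2 -0.62 ± 0.17, adjusted p = 0.107). All ES libraries lay below all NES libraries for NASP. With 1 library left out 0 to 6 of the 25 were called, the highest without NES6 (background 1.69%) or ES1 (1.18%).

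Histone variants made outside DNA replication were compared in the same libraries. Of 16 listed, 11 were measured, 3 of them (H1FX, H1F0 and HIST1H2BA) already described, and 1 fell and 0 rose (background 0.793% lower), with a median of -0.44. The one that fell was CENPA, with 0.360, 0.465 and 0.652 FPKM in ES ovaries, against 0.786, 1.89 and 3.81 FPKM in NES ovaries (log2 -2.02 ± 0.31, adjusted p = 0.0337) and no overlap between the groups. H3F3A, which encodes H3.3, averaged 67.8 ± 14.2 FPKM in ES ovaries, against 68.8 ± 12.0 FPKM in NES ovaries and differed by 0.071 ± 0.15 in log2 (adjusted p = 0.852), with a negative sign in 5 alternative fits. A locus described as histone H3.3 on chromosome 12 (MSTRG.3852, chosen after its value was seen) averaged 23.1 ± 3.07 FPKM in ES ovaries, against 24.6 ± 5.06 FPKM in NES ovaries and differed by 0.0058 ± 0.14 in log2 (adjusted p = 0.990). H2AFZ, the variant H2A.Z, had 12.4, 17.1 and 32.2 FPKM in ES ovaries, against 14.5, 31.3 and 79.1 FPKM in NES ovaries. NES1 was the highest, NES6 lay among the ES libraries, and the difference of -0.87 ± 0.36 in log2 (adjusted p = 0.257) was not called. H2AFY2, a macro-H2A, differed by -0.93 ± 0.34 in log2 (adjusted p = 0.216).

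Histone genes are transcribed in S phase, so genes of DNA replication were set beside them. Of 35 measured S phase genes 6 fell and 0 rose (background 0.793% lower), with 34 negative differences (background 43.8%) and a median of -0.83. Those with the smallest p-values were PRIM1, a primase subunit (log2 -1.01 ± 0.16, adjusted p = 0.0337), CLSPN, a checkpoint mediator (log2 -1.33 ± 0.25, adjusted p = 0.0388), and PCLAF, a partner of the replication clamp (log2 -2.20 ± 0.41, adjusted p = 0.0390). Of 18 mitosis markers 13 fell (background 0.793%), with a median of -1.63, among them BIRC5, CENPF and TTK at -1.62, -1.78 and -2.03 (adjusted p = 0.0337, 0.0337 and 0.0342). As for the histone loci, no gene of these lists of transcription and processing, chaperones, variants, S phase and mitosis was called without any one of ES2, ES4, ES6 or NES1 to NES5. Without NES6 (background 1.69%) 23 S phase genes, 15 mitosis markers and 2 variants were called. Without ES1 (1.18%) 18 S phase genes and 13 mitosis markers were called, without ES3 (0.309%) 1 and 6, and without ES5 (0.245%) 1 and 3; of the chaperones 0 were called without ES3 or ES5.

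The 38 histone loci summed to 543, 624.6 and 778 FPKM in ES libraries, against 801, 1614 and 1799.8 FPKM in NES libraries. The groups do not overlap, and ES1 with 778 lies next to NES6 with 801. The 35 S phase genes summed to 54.1, 57.2 and 77.9 FPKM in ES libraries and 65.6, 117 and 172 FPKM in NES libraries, where NES6 is again the lowest NES library and lies below ES1. The ratio of the histone sum to the S phase sum was 9.98, 10.8 and 13.1 in ES libraries and 10.5, 12.8 and 14.4 in NES libraries. These ratios overlap, with NES1 and NES2 among the ES libraries and ES2 among the NES libraries.

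**Figure D5:**
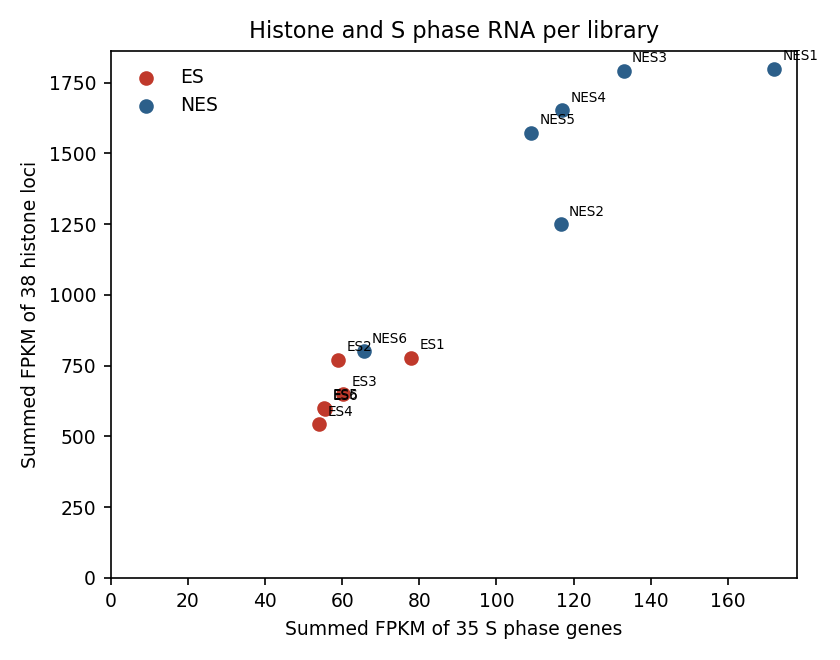
Each point is a library, with the summed FPKM of 35 S phase genes on the horizontal axis and of 38 histone loci on the vertical axis. The ES libraries and NES6 lie together at the lower left, and NES1 to NES5 lie above and to the right of them.

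Marker lists of ovarian and immune cells were read in the same libraries. All 9 measured luteal markers of 10 listed had positive differences (median log2 1.45, 89.0 to 514 summed FPKM in ES libraries and 59.0 to 90.4 in NES libraries). Of all 20421 tested loci, 11469 had positive and 8952 negative differences. EdgeR called 0 of the 9 (background 0.152% higher), with 7 at an unadjusted p under 0.05 (background 9.5% higher). DESeq2 called 4 (background 2.31% higher) and limma 1 (0.108%). Differences were also positive for the 10 measured macrophage markers of 12 (median log2 0.87, 20.5 to 451 summed FPKM in ES libraries and 15.1 to 41.1 in NES libraries), where ES3 holds the maximum, for the 5 measured lymphocyte markers of 12 (median log2 1.02, 1.82 to 9.31 summed FPKM in ES libraries and 1.79 to 3.51 in NES libraries) and the 5 measured epithelium markers of 10 (median log2 2.04, 1.95 to 60.3 summed FPKM in ES libraries and 0.699 to 3.53 in NES libraries), where ES6 holds the maximum. EdgeR called 0 in each of these lists (4 with an unadjusted p under 0.05 in each, background 9.5%), while DESeq2 called 0 macrophage, 1 lymphocyte and 2 epithelium markers and limma called 0 in each. Of the lymphocyte markers CD4, and of the epithelium markers CLDN4 and FOXJ1, were at 0 in at least 1 library. Granulosa markers went both ways: of 12 measured of 13 listed, 6 were negative and 6 positive. Their median log2 difference was -0.11, with 115 to 1402 summed FPKM in ES libraries and 249.8 to 809 in NES libraries. IHH fell by edgeR (background 0.793% lower), with 3 of the 12 lower by DESeq2 (background 2.97%) and 2 by limma (1.54%). All 6 measured oocyte markers of 11 had negative differences, and 0 were called by edgeR, DESeq2 or limma, with 0 at an unadjusted p under 0.05 in edgeR (median log2 -0.19, 6.46 to 12.6 summed FPKM in ES libraries and 7.96 to 14.8 in NES libraries). The part of these cell types in the histone differences was not tested. Without ES3 and ES6, the median of the 38 histone loci was -1.22.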

How the data were processed

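Each left ovary gave 1 strand-specific dUTP library, from Trizol RNA freed of ribosomal RNA, per the labels' protocols. The tools listed are FastQC, cutadapt, TopHat and HISAT2, with the pig build Sscrofa11.1, per the submitters' processing notes. How reads were counted, with which strand setting and which annotation, is not stated in the material used here. For this series, the authors deposited a count and an FPKM value for each of 29150 loci in 12 libraries, and some of these loci join several genes. FPKM is the authors' normalization to locus length and depth, so levels in the text compare loci per length. All per-sample columns were mapped to samples, leaving 0 unused.

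Counts were tested with edgeR 4.0.16 in R 4.3.3 (TMM factors, quasi-likelihood test, ES over NES), with Benjamini-Hochberg adjustment over the 20421 loci of at least 0.5 mean FPKM and a threshold of 0.05. The SE was taken from the log2 difference and its F statistic. DESeq2 1.42.0 and limma 3.58.1 were alternatives, as were other normalization and filters, a replicate block and each library left out. The script was tested on simulated data. Plots were drawn with matplotlib 3.10.9 from tables made in pandas 2.3.3 with numpy 2.4.6 (Python 3.11.15).

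The histone loci and all lists were chosen with earlier results of these data known. Of 202 listed genes 157 had a measured locus of their own, 10 of them matched by overlap with RefSeq genes, and 16 lay only in joined loci. Of the 27 histone loci with a bare Ensembl ID, 1 had a symbol in the name table. Named in the text are, in each class, the 3 loci with the highest mean FPKM and the 3 with the smallest p-value, in each pathway list the 3 genes with the smallest p-value, and a few fixed genes. Each library is 1 animal. PCR reads without molecular identifiers are not independent molecules. No sequence is shown, as none was used here.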

Additional observations from a re-analysis of the deposited data

Results flagged for a closer look

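In groups of 6, 5 of 102 group values had 1 library set apart by Dixon's test, which marks about 1 in 20 by chance. MSTRG.20501, the H2A type 1-like locus, had its highest ES value in ES1, 13.9 FPKM, with the next at 8.17 FPKM. CHAF1A was highest in ES1 at 1.37 FPKM, with the next ES library at 0.843 FPKM. MCM2 was highest in ES1 at 4.41 FPKM, with the next at 2.17 FPKM. NPAT was lowest in ES6 at 2.11 FPKM, with the next at 2.26 FPKM. The ratio of the histone sum to the S phase sum was highest among ES libraries in ES2 at 13.1, with the next at 10.8.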

How the results depend on the processing

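The histone loci tested kept a negative log2 difference in each of 22 alternative fits, apart from HIST1H1T in the 4 fits named above, while the number called moved. Of the 38, DESeq2 called 30 (1055 of all loci, 461 higher and 594 lower), limma on log2(FPKM + 0.5) 23 (337), on log2(FPKM + 0.1) 24 (334) and on log2(FPKM + 1) 23 (319). Robust edgeR called 16 (194), median-of-ratios factors 16 (196) and a minimum of 1 FPKM 17 of 36 (173). With no minimum 5 of 38 were called (28 of all loci). The 17 loci that overlap no other gave 6. Leaving out ES3 and ES6, chosen after seeing the data, gave 0 (1 of all loci), as for every pathway list. All 44 loci at any level, also added later, gave 5.

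Littermates were used, but title numbers are not said to mark litters, and same-numbered libraries deviated together with correlations of 0.24, 0.092, -0.0075, 0.052, 0.23 and -0.028. With 2 of 6 over 0.1, a cutoff set here, the numbers were not taken as pairs. With the replicate block 0 of 38 histone loci, 0 of all loci and 0 genes of each list were called (33 histone loci and 2708 of all loci at an unadjusted p under 0.05), and the histone median was -1.20. For 3 of the 6 numbers, the ES library correlated best with the NES library of its own number.

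With 1 library left out, the calls among histone loci ran from 0 to 27, among all loci from 0 to 415 (2629 to 3811 at an unadjusted p under 0.05), among S phase genes from 0 to 23, mitosis markers 0 to 15, chaperones 0 to 6, variants 0 to 2 and processing genes 0 to 1. Medians moved from -0.59 to -0.44 for H1, -1.46 to -1.21 for H2A, -1.42 to -1.19 for H2B, -1.71 to -1.37 for H3 and -1.62 to -1.38 for H4. The chromosome 4 median ran from -1.32 to -1.03, that of chromosome 7 from -1.61 to -1.36 and that of single loci from -0.53 to -0.40. In the lists DESeq2 called 2 processing, 8 chaperone, 2 variant and 24 S phase genes. Limma called 7, 5 and 6 chaperones with 0.5, 0.1 and 1 FPKM added, 2 variants and 17 S phase genes in each. With no minimum 0 processing genes, 0 chaperones, 1 S phase gene and 4 mitosis markers were called, and with a minimum of 1 FPKM 0 chaperones. The log2 difference of H3F3A turned to -0.029 in the 3 limma fits and -0.076 without ES3 and ES6, and ran from -0.041 (without ES3) to 0.15 with 1 library left out. That of NPAT ran from -0.12 to 0.035 (without NES1). The cause was not tested. Near-identical copies and nested loci limit what a single histone locus can show, and at low levels so do counts, as at HIST1H2BA.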
